A study of Mus musculus with 10 samples.

Results

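The Xpc-null regions outside chromosome 8 are the 351 of 828 regions (42.4%) that the authors listed on any other chromosome for RAD23B chromatin immunoprecipitation in mouse embryonic stem cells lacking Xpc. They were chosen by their chromosome alone, and all 351 were used. The remaining 477 regions of that list lie on chromosome 8. Chromatin immunoprecipitation with sequencing (ChIP-seq) was done with an antibody against RAD23B or with guinea pig IgG as the control, giving 6 libraries. There was 1 RAD23B and 1 IgG library from Xpc-/- embryonic stem cells, whose parent line the labels do not name, and 2 of each from wild-type cells of the D3 line, each pair being 1 replicate. RNA-seq of poly-A RNA gave 4 more libraries, all from the JM8.N4 embryonic stem cell line, 1 each from wild-type cells, Rad23b-/- cells, and Rad23b-/- cells with Xpc knockdown 1 or knockdown 2. Material of 4 ChIPs was pooled for each library, per the labels. No RNA library of the Xpc-null or D3 cells was used here, so RNA values beside a region come from other cells, and the Xpc-null list has no replicate.

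XPC and RAD23B, with a centrin, form the complex that finds distorted DNA and starts nucleotide excision repair. RAD23B binds XPC and stabilises it, and in embryonic stem cells the same complex also serves as a coactivator for OCT4 and SOX2. ChIP-seq reads also pile up at open chromatin, at active gene starts and at repeated sequence without regard to the antibody, which is why an IgG library is read beside each RAD23B library. A list of this kind names places where the reads of 1 library pass the caller's limits and exceed those of the other.

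The headings of the Xpc-null list have to be read before its values. In all 351 regions the IgG heading held more reads than the RAD23B heading. The authors' scaled fold followed the quotient of IgG-headed over RAD23B-headed reads, each with 1 read added, times a constant of 0.820 (relative standard deviation over regions 0.00146, against 0.450 for the opposite quotient). The highest pile of extended reads exceeded the reads headed RAD23B in 341 regions and the reads headed IgG in 2, the overlap column headed IgG stood at 100% in all 351, and the fold's own heading names the IgG library of wild-type replicate 1. In the wild-type replicate 2 list the overlap headings ran against the read columns, unlike in the Xpc-null list. Full overlap stood there under the heading IgG in all 42364 regions, although the column headed RAD23B held more reads in all 42364. Whether the regions were called in the RAD23B or in the IgG library of the Xpc-null cells cannot be told apart from these values, so reads are named below by their headings. The library in which they were called held 145.1 M reads (M, 1000000), against 109.3 M and 62.53 M for the wild-type lists.

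The places these regions mark can be shown by the starts of 5 genes that hold one of them. Each run is 250 bases before to 50 after the start, 5' to 3' on the gene's strand, from RefSeq on GRCm38.p6, in lower case, with matches to 6 searched motifs in capitals on either strand. They were chosen because the widest region of the set lay at Ndufs7 (a subunit of mitochondrial complex I), because Cltc (clathrin heavy chain) held 2 regions, because Gtf2h2 was the only member of the repair list with a region, because Tfrc (the transferrin receptor) was at least 2-fold higher in all 3 mutant RNA libraries, and because Calm3 (calmodulin), at 206 RPKM, is a highly expressed gene with coordinates of its own.
Ndufs7: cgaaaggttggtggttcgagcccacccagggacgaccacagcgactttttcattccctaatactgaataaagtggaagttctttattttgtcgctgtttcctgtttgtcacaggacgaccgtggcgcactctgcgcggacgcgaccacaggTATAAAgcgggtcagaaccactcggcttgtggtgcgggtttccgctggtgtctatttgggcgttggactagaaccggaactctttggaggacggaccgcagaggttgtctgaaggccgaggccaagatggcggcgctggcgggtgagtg
Cltc: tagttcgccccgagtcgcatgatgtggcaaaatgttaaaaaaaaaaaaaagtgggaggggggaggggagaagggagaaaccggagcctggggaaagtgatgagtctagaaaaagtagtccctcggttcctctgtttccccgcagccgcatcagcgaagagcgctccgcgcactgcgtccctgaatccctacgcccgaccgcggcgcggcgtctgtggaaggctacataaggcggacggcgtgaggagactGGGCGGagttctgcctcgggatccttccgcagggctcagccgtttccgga
Gtf2h2: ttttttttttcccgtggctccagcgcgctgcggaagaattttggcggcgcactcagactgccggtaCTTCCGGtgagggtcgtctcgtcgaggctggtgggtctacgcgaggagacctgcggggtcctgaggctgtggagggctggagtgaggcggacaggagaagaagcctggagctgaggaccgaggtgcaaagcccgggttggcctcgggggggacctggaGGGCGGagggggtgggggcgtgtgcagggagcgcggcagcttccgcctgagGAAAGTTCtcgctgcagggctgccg
Tfrc: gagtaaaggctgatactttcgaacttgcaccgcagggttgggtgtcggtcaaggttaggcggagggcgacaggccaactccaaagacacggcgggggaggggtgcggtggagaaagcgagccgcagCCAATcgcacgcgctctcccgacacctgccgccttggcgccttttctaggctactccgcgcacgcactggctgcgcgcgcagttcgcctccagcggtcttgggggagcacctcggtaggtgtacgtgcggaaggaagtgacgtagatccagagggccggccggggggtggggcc
Calm3: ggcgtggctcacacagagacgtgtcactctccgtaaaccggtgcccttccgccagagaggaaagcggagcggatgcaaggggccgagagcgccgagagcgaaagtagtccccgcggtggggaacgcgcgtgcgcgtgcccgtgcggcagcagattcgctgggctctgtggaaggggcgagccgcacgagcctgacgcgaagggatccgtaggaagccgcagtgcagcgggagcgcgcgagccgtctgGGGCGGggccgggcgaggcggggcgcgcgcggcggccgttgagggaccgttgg
In Ndufs7 the capitals mark TATAAA at -99 relative to the start, the letters of a TATA box, whose use there was not tested. In Cltc and Calm3 they mark the core of the GC box, GGGCGG. Gtf2h2 holds that core too, with the ETS core before it on the other strand and a heat shock element match after the start. In Tfrc, where RefSeq lists 2 starts and the first was taken, they mark CCAAT. In the deposited mm9 coordinates the Ndufs7 region ran from 188 bases before to 474 after the listed start, the Tfrc region from 35 before to 237 after, the Gtf2h2 region from 239 before to 106 after and the Calm3 region from 178 before to 18 after. The RefSeq starts were not compared with the mm9 starts of the expression tables. Region sequences themselves, in mm9, were not used here.

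Of the 100 protein-coding start genes with coordinates of their own, 80 matched a RefSeq promoter (80%). GGGCGG, the core of the GC box, stood in 63.8% of these 80 promoters and in 46.3% of the first promoters of all 17492 protein-coding genes of the table. CCGGAAG, the ETS core, stood in 22.5% and 11.9%. CCAAT stood in 41.3% and 39.03%, TATAAA in 7.5% and 13.3%, CACGTG, an E-box, in 10% and 7.90%, and GAANNTTC, part of the heat shock element, in 3.75% and 7.34%. Median GC content was 61% in the 80 promoters (quartiles 56.3 and 67.8%) and 56.3% in all (47.9 and 64.3%), and the median ratio of observed to expected CpG was 0.808 against 0.577. These are matches to letters on both strands, given as a description, and no motif contains another. Of all protein-coding start genes 90.4% reached a wild-type RPKM of at least 1, against 52.2% of all protein-coding genes outside chromosome 8. Promoters of expressed genes, or of genes with a wild-type region at the start, were not set beside the 80. Whether these differences belong to the regions or to expressed genes was not tested.

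The regions were short and low. Their width had a median of 216 bases (quartiles 189 and 274.5, range 185 to 662), 72 of them stood at the lowest width of 185 bases, and together they covered 85.4 kb. Reads headed IgG had a median of 80 (quartiles 72.5 and 97, range 64 to 31007) and reads headed RAD23B one of 40 (33.5 and 49.5, range 18 to 20631). The highest pile was at most 70 reads in 233 regions, where the lowest in the list is 65, and at least 100 in 17. The quotient of the reads, IgG heading over RAD23B heading, had a median of 2 (1.81 and 2.27, range 1.41 to 4.28), and the authors' fold one of 1.62 (1.47 and 1.84, range 1.15 to 3.39). Chromosome 8 regions of the same list had a median width of 229 bases, quotient of 1.87 and fold of 1.52. An authors' fold of at least 2 was reached by 50 regions (14.2%, exact 95% interval 10.8 to 18.4%) against 34 of 477 on chromosome 8 (7.13%, 4.99 to 9.82%) and 10.1% of the whole list. Turned round to follow the headings, RAD23B over IgG, the same fold ran from 0.295 to 0.870 and reached 2 in 0 regions. The intervals here and below are Clopper-Pearson intervals of counting error only, and with 1 library a group no difference was tested.

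**Figure D1:**
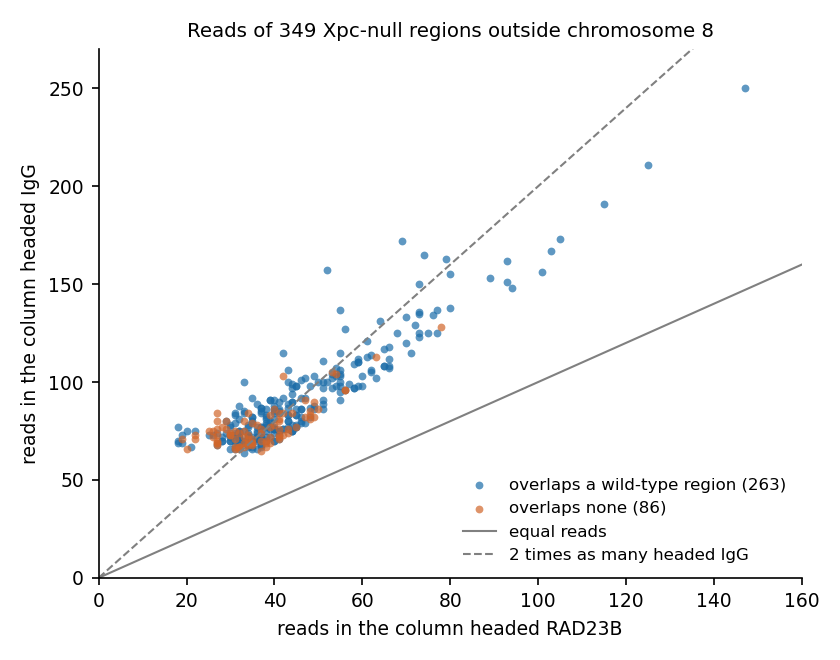
Reads in the column headed IgG (vertical axis) against reads in the column headed RAD23B (horizontal axis), 1 point for each of 349 regions; the 2 regions above 1000 reads are beyond the axes. Every point lies above the line of equal reads, and regions that overlap a wild-type region (263, blue) or none (86, orange) share the same cloud, with the points above 150 reads headed IgG all blue.

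The 10 regions of highest authors' fold sat near the floor of the list: each had 18 to 22 reads headed RAD23B and 66 to 77 headed IgG. With the headings taken as written, these are the 10 regions of lowest RAD23B over IgG (0.295 to 0.380). First came chr14:56442456-56442654, 977 bases before the listed start of Nfatc4, a calcium-regulated transcription factor gene, with 18 and 77 reads and a fold of 3.39. A region in the locus of Jam2, a junction adhesion molecule, followed (chr16:84779499-84779684; 18 and 70 reads, 3.08), then one in the locus of Pcsk2, a prohormone convertase (chr2:143371096-143371282; 19 and 73, 3.05). A region at the start of Dnajc1, a co-chaperone gene on shared coordinates, had a fold of 3.04 (chr2:18314469-18314654), and one in the locus of Setd8, a histone methyltransferase gene, 2.72 (chr5:124896708-124896899). Of the 10, 7 overlapped a wild-type region. Those near Rsph1 (chr17:31420369-31420554), in the locus of Rbbp6 (chr7:130140435-130140620) and in that of Rai12 (chr11:69796719-69796907) overlapped none. Counting error alone is wide here: 18 reads have an exact Poisson interval of 10.7 to 28.4 and 77 reads one of 60.8 to 96.2.

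The 10 widest regions and the 10 with most reads headed IgG had 9 in common, of which 7 are given here together with Ap1s1, which was only among those with most reads, and Golga3, which was only among the widest. The other two are the extreme regions on chromosomes X and 6. At Ndufs7 (chr10:79711677-79712339) 662 bases held 147 reads headed RAD23B and 250 headed IgG, with a fold of 1.39. U3, the snoRNA that guides early cuts of ribosomal RNA, had 125 and 211 reads (chr10:39978211-39978644; 1.38). U11, a small nuclear RNA of the minor spliceosome, had 115 and 191 (chr4:131825742-131826254; 1.35). Snord118, the gene of U8, which acts in the processing of large subunit ribosomal RNA, had 105 and 173 (chr11:68886890-68887320; 1.34), and the noncoding gene Gm11205 103 and 167 (chr11:79518028-79518548; 1.32). Ap1s1, a clathrin adaptor subunit gene, had 69 and 172 (chr5:137521573-137521983; 2.02), Nlgn2, a neuroligin gene, 74 and 165 (chr11:69650582-69651034; 1.81), and Golga3, a golgin gene, 73 and 150 (chr5:110605764-110606189; 1.67). One further region of this kind lay in a locus shared by Carm1 and Yipf2 (chr9:21397150-21397575; 79 and 163, 1.68). Low folds went with many reads in both columns: the 5 lowest folds lay between 1.15 and 1.32 and included the starts of Dffb, a caspase-activated nuclease gene (chr4:153349023-153349399; 94 and 148), and Ccdc57 (chr11:120794131-120794400; 63 and 102).

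Above all others stood 2 regions. One on the X chromosome, 35296 bases from the listed start of Pak3 (chrX:139917417-139917837), held 20631 reads headed RAD23B and 31007 headed IgG, with a fold of 1.23 and a highest pile of 31002. The other, in a locus shared by Chl1 and a copy of U7 (chr6:103598924-103599431), held 12051 and 16960, with a fold of 1.15. Neither overlapped a wild-type replicate 1 region. Both overlapped replicate 2, where RAD23B and IgG reads stood at 6894 and 6325 (fold 1.09) and at 32906 and 30622 (1.08). These 2 regions held 60.9% of all reads headed IgG in the set. The summed reads gave a quotient of 1.64 with them and 2.01 without.

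In 17 regions the overlap column headed RAD23B was also above 0, with a median of 69.8% of the region (range 37.5 to 100%). Reads headed RAD23B had a median of 77 there, against 39 in the other 334, and the highest pile one of 103 against 68. Choosing regions by this overlap may itself favour those with more reads. Their folds ran from 1.15 to 1.57. U3, U11, Dffb, a region at the starts of Rdm1 and a U2 copy (chr11:101488829-101489070; 59 and 98 reads, fold 1.35), and both extreme regions were among the 17.

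Chromosome 11 held 59 of the 351 regions (16.8%, 13.05 to 21.1%), while it held 9.08% of the wild-type regions outside chromosome 8 in replicate 1 and 9.59% in replicate 2. Of the 59, 41 overlapped a wild-type region and 27 lay at a start. The X chromosome held 1 region against wild-type shares of 1.35 and 0.974%, and none lay on Y. Neighbouring regions on a chromosome were 1718 kb apart in the median, against 51.7 kb on chromosome 8. No group of 3 or more regions with gaps of at most 10 kb was found. There were 9 pairs, of which 4 had gaps of at most 1 kb. Those at Cltc (chr11:86570949-86571262, 62 and 114 reads, and chr11:86571343-86571533, 34 and 78) and at Hsp90ab1, the constitutive HSP90 gene (chr17:45710025-45710325, 66 and 108, and chr17:45710740-45710985, 38 and 77), each lay at 1 gene start, and at both genes the pair fell within a single wild-type replicate 1 region.

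**Figure D2:**
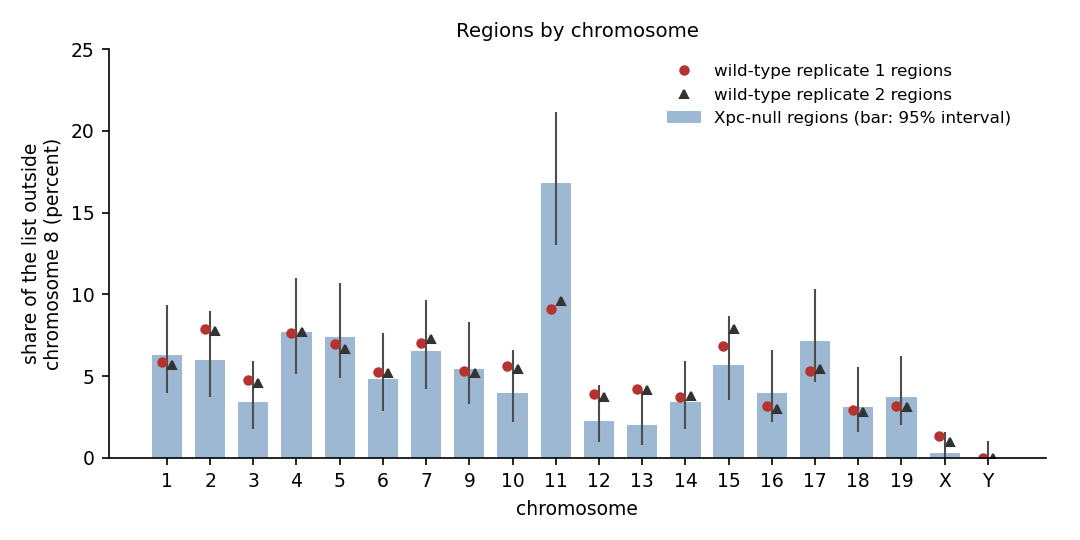
Share of regions by chromosome, as a percent of each list outside chromosome 8: bars for the 351 Xpc-null regions with exact 95% intervals, red circles for wild-type replicate 1 (55240 regions) and black triangles for replicate 2 (38709). Chromosome 11 stands at 16.8% against 9.08 and 9.59%.

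Gene starts held a larger share of this set than of the other lists. Of the 351 regions, 150 (42.7%, 37.5 to 48.1%) lay within 1 kb of a start listed in the expression tables, 116 (33.0%) elsewhere in a listed locus, 32 (9.12%) within 5 kb of one and 53 (15.1%) farther away. On chromosome 8 the shares were 22.6, 52.2, 9.02 and 16.1%, and among wild-type replicate 1 regions outside chromosome 8 they were 23.96, 40.1, 9.09 and 26.9%. Replicate 2 had 28.4% at starts. Counting only genes with coordinates of their own, 30.5% of the set lay at a start. Among the 102 regions whose middle was within 1 kb of such a start, 67.7% lay within 250 bases of it, 39.2% upstream, and the median middle was 43.5 bases downstream. In wild-type replicate 1 these values were 66.3%, 43.3% and 30 bases over 8639 regions.

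Most of the regions overlapped a wild-type region in position. By the headings their reads ran opposite ways. All 351 held more reads headed IgG, while all 59768 and 42364 wild-type regions held more RAD23B reads. The overlap of the wild-type lists with each other is not given beside the shares below. At least 1 base was shared with a replicate 1 region by 258 (73.5%, 68.6 to 78.05%), with a replicate 2 region by 235 (67.0%, 61.8 to 71.9%), with both by 228 (65.0%) and with neither by 86 (24.5%, 20.1 to 29.4%). On chromosome 8, 59.3% overlapped either list and 40.7% neither. Of the 258, 236 lay wholly inside the replicate 1 region. Overlap differed by place: 142 of the 150 regions at starts overlapped either list (94.7%, 89.8 to 97.7%), 73 of the 116 in loci (62.9%), and 28 of the 53 farther away (52.8%, 38.6 to 66.7%). When wild-type regions with an authors' fold below 2 were left out, 29.1% of the set overlapped either list.

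**Figure D3:**
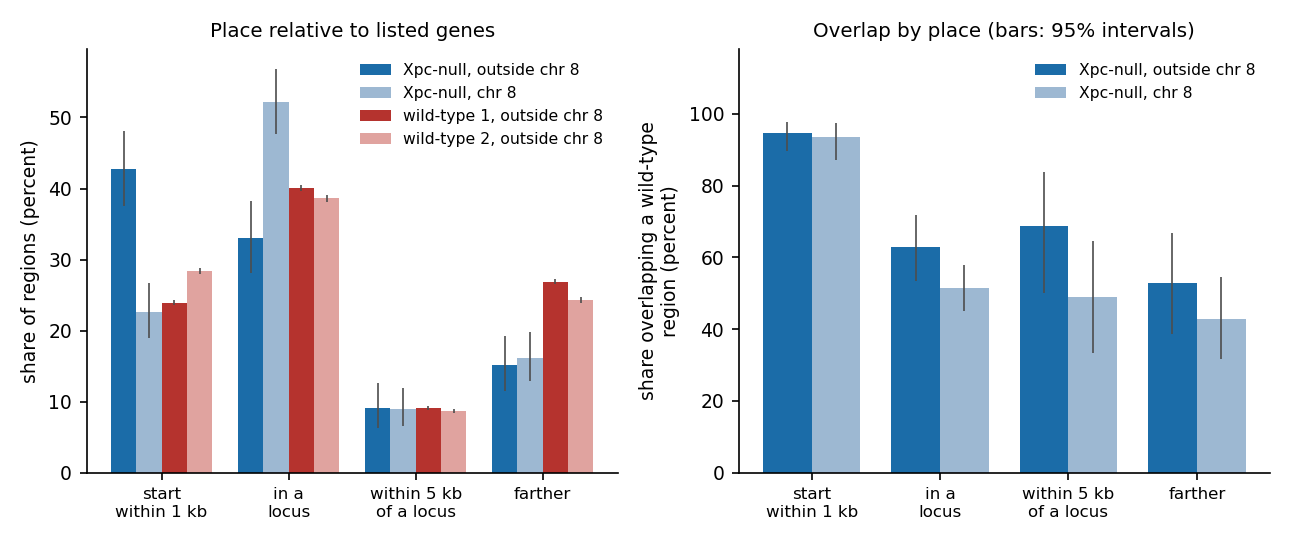
Left, share of regions by place relative to listed genes in 4 lists (Xpc-null outside and on chromosome 8, and the wild-type replicates outside it); right, share of Xpc-null regions in each place that overlaps either wild-type list. Bars are percents with exact 95% intervals; the set stands at 42.7% at starts, and overlap is 94.7% there against 52.8% far from genes.

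The 86 regions that overlapped no wild-type region were narrower and poorer in reads. Their median width was 202 bases against 230 in the 265 others, with 74 against 83 reads headed IgG and 35 against 41 headed RAD23B. The median fold was 1.65 against 1.62. Starts held 8 of the 86 (9.30%, 4.10 to 17.5%) and 142 of the 265 (53.6%, 47.4 to 59.7%), and 29.1% against 10.6% lay farther than 5 kb from any listed locus. A fold of at least 2 was reached by 20.9% and 12.1%.

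The wild-type regions beneath them were rich in reads of both libraries rather than high in fold. The set overlapped 255 replicate 1 regions and 232 of replicate 2. The 255 had a median of 331 RAD23B and 167 IgG reads, against 133 and 66 over all 59768 regions, a median width of 867 against 503 bases and a median authors' fold of 1.80 against 1.88. Their median percentile in the list was 90.1 by IgG reads, 88.7 by RAD23B reads, 85.5 by width and 44.1 by fold. Wide regions gather more reads, and by IgG reads per base, a ranking added after the data were seen, it was 89.4. In replicate 2 the percentiles were 89.1 by IgG reads, 87.0 by IgG reads per base, 85.5 by RAD23B reads and 33.3 by fold. A fold of at least 2 was held by 29.0% of the 255 against 41.7% of the whole list, and by 37.5% of the 232 against 56.3%.

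By decile the same contrast appears from the wild-type side. In the top decile by IgG reads 139 of 5524 replicate 1 regions outside chromosome 8 were overlapped (2.52%, 2.12 to 2.96%), in the fifth decile 6 (0.109%) and in the lowest 0, which allows up to 0.0543% (3 counts). Ranked by fold, the lowest decile stood at 34 (0.616%, 0.427 to 0.859%) and the highest at 12 (0.217%, 0.112 to 0.379%). Replicate 2 gave 3.05% and 0.0258% for the top and lowest decile by IgG reads, and 0.181% and 1.11% by fold.

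**Figure D4:**
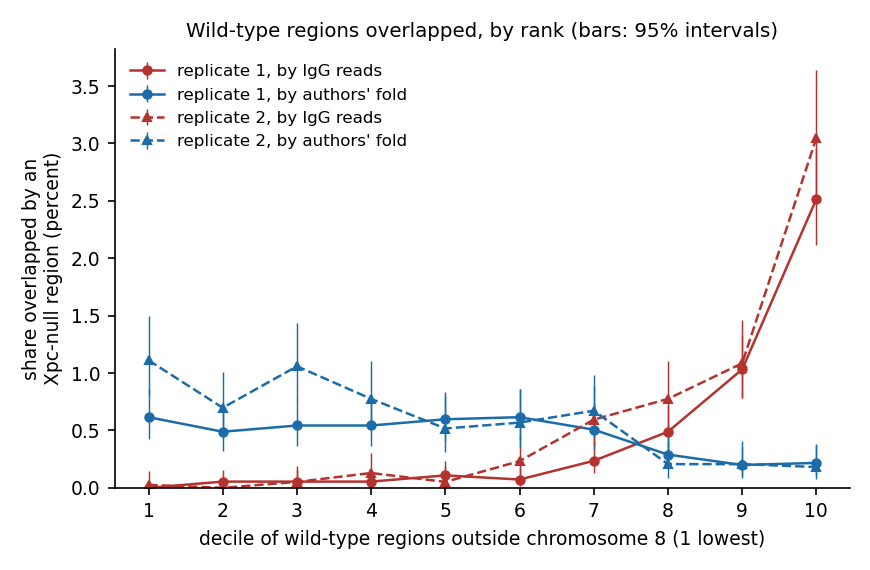
Share of wild-type regions outside chromosome 8 that an Xpc-null region overlaps, in percent, by decile of IgG reads (red) or of authors' fold (blue), solid for replicate 1 and dashed for replicate 2, with exact 95% intervals. The red lines climb to 2.52 and 3.05% in the top decile and the blue lines end at 0.217 and 0.181%.

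A few places had a high wild-type fold. At Ap1s1 the wild-type region held 1346 RAD23B and 241 IgG reads in replicate 1 (fold 5.31) and 581 and 85 in replicate 2 (6.77). An intergenic region, 43550 bases from the start of Gm12486 (chr3:100967577-100967772; 20 and 75 reads, Xpc-null fold 2.98), lay on wild-type regions with 910 and 167 reads (5.17) and 450 and 83 (5.37). The Jam2 place had wild-type folds of 3.62 and 4.51, the one near Tgfbi, a matrix protein gene, 3.73 and 3.43 (chr13:56683581-56683766), and Nlgn2 3.17 and 3.33. More often the wild-type fold was modest: at U3 it was 2.24 and 2.15 (356 RAD23B and 151 IgG reads in replicate 1), at U11 1.74 and 1.76 (491 and 269), at Snord118 1.83 and 1.76 (368 and 191) and at Ndufs7 1.41 and 1.54 (424 and 287).

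In all, 184 genes outside chromosome 8 had a region of the set within 1 kb of their start, 0.526% of 34975. Of the 184, 181 had a wild-type region there too. Over all 34975 genes, 13795 had a replicate 1 region at the start and 11859 a replicate 2 region. Protein-coding genes made up 79.3% of the 184, and 79.8% and 80.45% of the genes with a replicate 1 or replicate 2 region at the start. Within 1 kb of the start or in the locus, 1.53% of all genes had a region. The core and naive pluripotency list had 0 of 23 members with one, the replication-dependent histone genes 0 of 67, the Hox genes 0 of 36, the imprinted genes 0 of 24 and the immediate early genes 0 of 15. Olfactory and vomeronasal receptor genes had 3 of 1655 (Olfr1371, Olfr1372-ps1 and Olfr1373), which share 1 merged locus on chromosome 11, and none at a start.

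Of 26 genes for the XPC complex and nucleotide excision repair, 1 had a region: Gtf2h2, a subunit of TFIIH, the factor that opens DNA in both transcription and repair (chr13:101262428-101262773; 61 and 121 reads, fold 1.61). Beneath it lay a wild-type replicate 1 region with 224 and 148 reads (1.44) and none of replicate 2. Among 30 housekeeping genes 4 had a region at the start. These were Hspa8, the constitutive HSP70 (chr9:40609285-40609536; 42 and 92 reads, wild-type folds 2.06 and 2.18), Hsp90ab1, and the translation helicases Eif4a1 (chr11:69485673-69485858; 30 and 70) and Eif4a2 (chr16:23107420-23107625; 35 and 82), both on shared coordinates. The last pair also gave the 2 of 10 snoRNA host genes, and the first pair the 2 of 14 heat shock genes, so these lists are not separate evidence. Ribosomal protein genes had 3 of 80, among them Rpl12 and Rpl18, both on shared coordinates. At Rpl18 (chr7:52962629-52962814; 32 and 67 reads) no wild-type region was overlapped.

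The list of small RNA genes had 2 of 73, Snord118 and Snord35b, the latter on shared coordinates. Its names miss those that the tables give to other small RNAs. Chosen after their values were seen, U3, U11, U6atac (chr2:27395285-27395470; 34 and 73 reads), U2, 7SK and Vault, a vault RNA gene (chr18:36961454-36961741; 48 and 87), also had a start within 1 kb. By gene type the counts were 3 of 1360 snRNA genes (0.221%, 0.0455 to 0.643%) and 4 of 1396 snoRNA genes (0.287%, 0.0781 to 0.732%). They were 2 of 452 genes typed misc_RNA (0.442%, 0.0536 to 1.59%) and 4 of 1363 miRNA genes (0.294%, 0.0800 to 0.750%). Protein-coding genes stood at 0.691%, inside all of these intervals but that of snRNA genes. Many listed copies of such small RNA genes resemble each other closely, and the rule by which their reads were placed was not among the sources.

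Genes with a region at the start were more highly expressed than genes at large. In wild-type JM8.N4 cells, which expressed the stem cell genes Pou5f1 (1603 RPKM) and Nanog (512 RPKM), 77.2% of the 184 reached an RPKM of at least 1, against 38.2% of all genes in the table and 67.8% of genes with a wild-type replicate 1 region at the start. An RPKM of at least 10 was reached by 55.4% and one of at least 100 by 14.1%, against 7.34% with a wild-type region and 3.91% of all outside chromosome 8. The median was 13.4, against 5.83 and 0.108. Among protein-coding genes alone the medians were 25.7, 9.99 and 1.40. Among the 10 highest were Hspa8 (6691), Hsp90ab1 (5348), Eif4a1 (2146), Rpl12 (1393, on shared coordinates), the chaperonin subunit Cct4 (919), Eif4a2 (756), the mitochondrial channel Vdac1 (675), the actin-severing Cfl1 (566) and the nucleosome-binding Hmgn1 (439). Start genes of the same list on chromosome 8 reached an RPKM of at least 1 in 71.2% and of at least 10 in 47.3%, with a median of 7.86. Among genes with coordinates of their own, 84.9% reached 1 on chromosome 8 and 79.7% outside it. High expression is thus not particular to the set.

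RNA of these genes after loss of Rad23b was compared without a test, since each group is 1 library and the comparisons share the wild-type one. The targets were lower where the labels name them, but Rad23b RNA was not absent. Rad23b stood at 229 RPKM in wild type and at 43.9, 35.8 and 52.5 in Rad23b-null cells, knockdown 1 and knockdown 2. Xpc stood at 8.73, 8.34, 0.915 and 0.895 in the same order. Of the 148 start genes that reached an RPKM of 1 in wild-type or mutant cells, 4 (2.70%) were at least 2-fold higher in Rad23b-null cells and 9 (6.08%) lower, on the scale of log2 (RPKM + 1), against 4.74 and 4.61% of all such genes. In knockdown 1 it was 5 (3.38%) and 3 (2.03%) of 148 against 3.95 and 3.4%, and in knockdown 2 it was 3 (2.05%) and 4 (2.74%) of 146 against 3.93 and 3.6%. The median log2 ratio of the start genes was -0.32, -0.24 and -0.30, that of all genes -0.16, -0.14 and -0.14, and that of genes with a wild-type replicate 1 start region -0.17, -0.16 and -0.16. Ratios below 0 were held by 75.7, 77.7 and 76.7% of start genes and by 62.9, 63.8 and 62.7% of all genes. After centring on the median of all genes, the counts in Rad23b-null cells became 5 higher and 2 lower (Crtac1 and Hspa8), 7 and 2 in knockdown 1 and 3 and 3 in knockdown 2, so the split depends on scaling.

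Tfrc, which brings iron into cells, was at least 2-fold higher in all 3 mutant libraries: 126 RPKM in wild type and 348, 355 and 428 in Rad23b-null cells, knockdown 1 and knockdown 2 (log2 1.47, 1.53 and 1.79). All mutant values lie above the wild-type one, but the authors' deposited tables give p-values of 0.588, 0.426 and 0.46. Its region (chr16:32608970-32609242) held 39 and 91 reads, over wild-type regions of fold 2.37 and 2.48. Gm13421, a noncoding gene whose start is near the U6atac region, went the same way, from 0.564 RPKM to 2.47, 2.84 and 2.75, with p-values of 0.084, 0.015 and 0.047 in the authors' deposited tables, not adjusted over genes here.

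Hspa8 stood at 6691 RPKM in wild type and at 2894, 3518 and 2917 in the mutants, and was at least 2-fold lower in Rad23b-null cells and knockdown 2 (log2 -1.21 and -1.17) but not in knockdown 1 (-0.89). Hsp90ab1, at 5348, 3071, 3653 and 3302, stayed within 2-fold. Cct4 went from 919 to 455, 497 and 437. The other genes at least 2-fold lower in Rad23b-null cells were Vdac1 (675 to 328), Mettl16, an RNA methyltransferase gene (65.9 to 31.8), Rbm25, a splicing factor gene (69.1 to 31.7), Crtac1, a matrix protein gene (7.27 to 2.28), and, on shared coordinates, B3gnt2 (218 to 103), Eif4a1 (2146 to 1006) and snoU6-77 (32.1 to 14.9). The authors' deposited p-values in Rad23b-null cells were 0.022 for Rbm25 and 0.009 for Crtac1, not adjusted over genes here. For the other lower genes they were 0.996 (Hspa8), 0.66 (Cct4), 0.232 (Vdac1), 0.471 (Mettl16), 0.213 (B3gnt2), 0.987 (Eif4a1) and 0.988 (snoU6-77). Gtf2h2 stood at 60.2, 38.7, 38.9 and 35.6. Besides Tfrc and Gm13421, the higher genes there were Vault (listed at 0 in wild type, 7.82 RPKM in Rad23b-null cells) and U11 (listed at 0, 2.53), both listed at 0 in either knockdown; such small RNAs mostly lack poly-A tails.

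Chromosome 11, which holds 59 of the 351 regions, had a lower median in the RNA data than the other chromosomes. All 1274 of its genes that passed the RPKM limit had a median log2 ratio of -0.44 in Rad23b-null cells, against -0.14 for the 13766 genes elsewhere, with 162 at least 2-fold lower (12.7%) and 46 higher (3.61%). Elsewhere 532 were lower (3.87%) and 667 higher (4.85%). The same medians were -0.45 against -0.13 in knockdown 1 and -0.44 against -0.12 in knockdown 2. Of the 9 lower start genes in Rad23b-null cells 6 lie there (Cct4, Vdac1, Mettl16, B3gnt2, Eif4a1 and snoU6-77), which is 6 of the 25 start genes on that chromosome, beside the 12.7% of all its genes. On the other chromosomes 3 of 123 start genes were lower (2.44%), beside 3.87% of all genes there. Start genes elsewhere had a median of -0.27, -0.22 and -0.24, and those on chromosome 11 one of -0.67, -0.55 and -0.48 (25 or 26 genes). Region counts come from wild-type cells of another line and from Xpc-null cells whose parent line the labels do not name. What part the chromosome has in them was not tested. The counts without chromosome 11 were added after the data were seen.

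**Figure D5:**
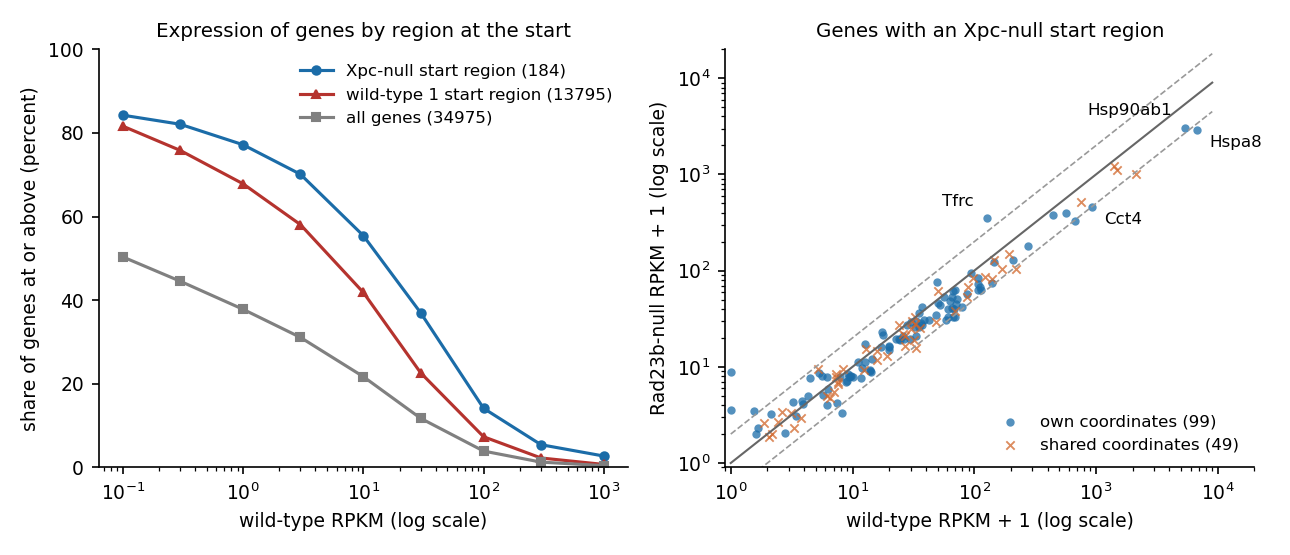
Left, percent of genes at or above a wild-type RPKM (log axis) for 184 genes with an Xpc-null region at the start, 13795 with a wild-type replicate 1 region there and all 34975 outside chromosome 8; right, RPKM + 1 in Rad23b-null against wild-type cells for 148 start genes (log axes; circles, own coordinates; crosses, shared), with lines at equality and at 2-fold. The first curve is the highest throughout, and Tfrc stands above the upper line while Hspa8 and Cct4 stand at or below the lower.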

How the data were processed

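ChIP-seq regions were used as deposited in mm9, and Partek is named for them in the submitters' processing notes; the aligner and the calling limits were not among the sources. Per the file headers, each list holds counts of reads per region in the RAD23B and IgG libraries, the highest signal of extended reads, and a score headed RPM, the maximum per 1000000 reads of the called library. The scaled fold ratio and its p-value (none above 0.05) are the authors' own, and the overlap is deposited as a fraction in the wild-type lists and a percent in the Xpc-null list. Expression was deposited as RPKM from TopHat2 2.0.6, Cufflinks 2.0.2 and Cuffdiff, per the submitters' processing notes, with the authors' ratio and p-value beside it; exactly 1 was read as 0. Of the lines of each table, 72 name no gene and were left out, and 13068 genes share listed coordinates with others, where the end of the merged locus stands for the start.

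Groups came from the labels, which do not say whether the wild-type replicates were separate cultures. Regions overlapped when they shared at least 1 base, and a gene had a region at its start within 1 kb. Changes were log2 ratios with a pseudocount of 1 among genes that reached an RPKM of 1 in wild-type or mutant cells. Regions named were the 10 of highest fold, most reads headed IgG and greatest width, the 5 of lowest fold, groups of 3 or more, and those at members of 12 gene lists; genes named were those there, the 10 of highest RPKM and those at least 2-fold apart in all 3 tables, except 1 that is not reported here. The set and the lists were chosen with earlier results of these data known. Python 3.11.15, numpy 2.4.6, pandas 2.3.3, scipy 1.17.1 and matplotlib 3.10.9 were used, and interval functions were tested on simulated data. Alternatives changed the overlap rule, the fold and read limits, the start window, the genes used and the scaling.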

Additional observations from a re-analysis of the deposited data

How the results depend on the processing

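Of 91 alternative values for 31 results, 70 stayed within the main value's interval (counts within 1.5 times) and 21 moved. Only the median log2 changes could change sign, and 0 did. Gene lists with 0 members at a region could only stay at 0 under the narrower start rule. The split of start genes past 2-fold in Rad23b-null cells did turn, from 4 higher and 9 lower to 5 and 2 after centring. The share that overlapped either wild-type list, 75.5%, was 80.1% within 500 bases, 64% for regions with a fold of at least 2, 82.4% for regions with a maximum at or above the list's median and 29.1% against wild-type regions with a fold of at least 2; it ran from 66.95 to 73.5% with 1 wild-type replicate left out. The read quotient, 2, was 1.64 as a ratio of sums and 1.90 for regions at or above the median maximum. Median width was 195.5 bases at a fold of at least 2. The share at starts, 42.7%, was 55.8% within 5 kb, 30.5% for genes with coordinates of their own and 34% at a fold of at least 2. Genes at least 2-fold lower in Rad23b-null cells numbered 2 after centring and 3 without chromosome 11 instead of 9, and genes higher in knockdown 2 numbered 5 with a pseudocount of 0.1 instead of 3. Median log2 changes were -0.23, -0.16 and -0.17 with no filter on low values and -0.16, -0.10 and -0.16 after centring, in Rad23b-null cells, knockdown 1 and knockdown 2. Olfactory and vomeronasal receptor genes had 0 regions at starts instead of 3 at starts or in loci. Leaving out chromosome 11 or the 2 extreme regions and ranking by reads per base were added after the data were seen. Apart from the centring and the narrower sets, the cause was not tested. No paired analysis was possible because the results come from no test and the Xpc-null and RNA groups have 1 sample each. The list's lowest maximum of 65 reads in 145.1 M limits what can be absent from it: a place without a region may lie under that limit.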

Other observations

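One region, named after its values were seen, lay near the first listed positions of chromosome 9 (chr9:3037581-3037798), where 13 predicted genes share listed loci. It held 62 reads headed RAD23B and 106 headed IgG, with an authors' fold of 1.39 and an overlap of 100% under both headings. Wild-type replicate 1 had no region there. In wild-type replicate 2 a single region (chr9:3000001-3038575) spanned the place, with 1264590 RAD23B and 1126610 IgG reads and a fold of 1.12.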
